A study of Mus musculus with 115 samples.

Results

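The cholesterol and fatty acid synthesis genes described here are 35 autosomal mouse genes, chosen by name as enzymes and regulators of the sterol and fatty acid pathways and matched to their Ensembl identifiers, out of 45699 genes measured. They were measured by total RNA sequencing in prostate libraries of F2 mice. The mice were transgene-positive males of a (TRAMP x WSB/EiJ) F2 cross, kept until a set age or a humane endpoint. The cross joins C57BL/6J TRAMP females, which express SV40 T antigen in the prostate epithelium from a probasin promoter, with wild-derived WSB/EiJ males, and all mice of the series carried the transgene, so there is no transgene-negative group. RNA came from bulk prostate tissue, taken from the ventral prostate where the gland was small. The labels give 1 condition and no tumor burden, age at death or batch for a library, so the genes were followed over all libraries and against 3 reference genes, namely Mki67 (a proliferation marker), Chga (the neuroendocrine granule protein chromogranin A) and Tgm4 (a transglutaminase secreted by the prostate).

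Cholesterol is built from acetyl-CoA through mevalonate, squalene and lanosterol, and fatty acids are built from acetyl-CoA through malonyl-CoA. Both arms are transcribed under the SREBP factors, which the escort protein SCAP carries out of the endoplasmic reticulum when sterols are low and which INSIG proteins hold back when sterols are plentiful. Prostate epithelium is known for lipid and sterol synthesis under androgen, and fat cells express the fatty acid arm at high levels, which matters in tissue dissected with its surrounding fat.

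The libraries did not form 1 continuous set. The first principal component, with 48.7% of the variance of 14623 genes, separated 79 libraries from 36. Among the 79, Mki67 had a median of 4.23 TPM (RSEM's transcript abundance, corrected for length and scaled to a fixed total in each library), Chga of 0.30 TPM and Tgm4 of 7050 TPM. Among the 36 the medians were 83.5, 57.2 and 1.83 TPM. Secretory markers of the labelled tissue were therefore low in most of the 36 libraries, where Pbsn, which encodes probasin, was listed at a median of 0.0. These parts were read from the data, are not groups of the study and were not compared with each other. Relations were computed inside each, and whether they differed between the parts was not tested. In bulk tissue, fewer cells of a type and less RNA per cell cannot be told apart.

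Each of the 35 genes averaged 1 TPM or more and entered every test, and 0 of them were listed at 0 in any library. Their medians over all libraries ran from 1.23 TPM for Acacb, the mitochondrial form of acetyl-CoA carboxylase, to 61.96 TPM for Scd2, a stearoyl-CoA desaturase. The ratio of the 90th to the 10th percentile was smallest for Srebf2 (1.92), the SREBP of the sterol arm, and largest for Scd1 (352), the other desaturase. Among the 15 sterol enzymes it ran from 2.10 for Lss to 5.99 for Hsd17b7, and the 5 widest of the 35 genes were Fasn, Acsl1, Acacb, Elovl6 and Scd1, at 9.29 and above.

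In the mevalonate segment, Fdps, which makes farnesyl diphosphate, was the most abundant, from 14.2 TPM through a median of 43.6 to 148. Hmgcs1, the HMG-CoA synthase (chromosome 13, 119690379 to 119708260, plus strand, GRCm38), went from 2.85 through 12.8 to 50.8 TPM. Mvk, mevalonate kinase, went from 2.38 through 8.65 to 24.2 TPM. The acetoacetyl-CoA thiolase Acat2, the kinase Pmvk, the decarboxylase Mvd and the isomerase Idi1 had medians between 4.60 and 12.7 TPM. Overlapping exons leave 3 of these values uncertain, since Gm43738 shares 26.7% of the exon bases of Fdps on the same strand, and Gm48342 and Gm48574 share 12.1% of those of Hmgcs1 and 9.22% of those of Idi1 on the other. Idi1 has a processed pseudogene, Gm13502, identical to it over 684 bases, whose median was 0.2 TPM.

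From squalene to cholesterol, the medians lay between 1.85 TPM for Hsd17b7, a 3-ketosteroid reductase, and 10.6 TPM for Msmo1, the methylsterol oxidase. Sqle, the squalene epoxidase, went from 2.88 through 9.55 to 34.8 TPM. The squalene synthase Fdft1, the lanosterol synthase Lss, the demethylase Cyp51, the desaturase Sc5d and Dhcr7, the reductase that gives cholesterol, had medians of 9.61, 6.80, 9.76, 8.84 and 2.49 TPM. Fdft1 shares 18.3% of its exon bases with Ctsb on the other strand, and the strand of the reads is not given in the sources used here.

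Among the regulators, Srebf1, the SREBP tied to the fatty acid arm (chromosome 11, 60199089 to 60222581, minus strand), went from 7.38 through 35.1 to 170 TPM. Srebf2 stayed between 2.62 and 18.3 TPM, Scap between 4.95 and 35.4, and Insig1 between 6.87 and 100.1. Each regulator was therefore present in every library.

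The fatty acid arm had the longest tails. Fasn, fatty acid synthase (chromosome 11, 120805846 to 120824547, minus strand), had a median of 28.7 TPM, a minimum of 6.56 and a maximum of 1393. Acly, which makes cytosolic acetyl-CoA from citrate, went from 10.6 through 35.5 to 667 TPM, and Acaca, the cytosolic acetyl-CoA carboxylase, from 4.31 through 20.9 to 331. Scd1 (chromosome 19, 44394455 to 44407879, minus strand) went from 0.05 through 35.99 to 3619 TPM, and 12 libraries were under 1 TPM. The elongases Elovl1, Elovl5 and Elovl6 had medians of 17.3, 20.2 and 2.96 TPM, the desaturases Fads1 and Fads2 of 12.5 and 16.5 TPM, and the acyl-CoA synthetases Acsl1 and Acsl3 of 24.04 and 37 TPM. Scd1 and Scd2 share a stretch of 623 bases at 95.5% identity, so reads there could be split between them. Acaca has a processed pseudogene, Gm5182, at 99.2% identity over 6118 aligned bases. No TPM was matched to it, which leaves reads there uncertain as well.

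For sterol handling, Soat1, which esterifies cholesterol, had a median of 6.34 TPM, the lysosomal exporter Npc1 of 4.08 TPM and the carrier Stard4 of 3.37 TPM. One library, W4078, held the maximum of 12 of the 35 genes (Pmvk, Sc5d, Srebf1, Insig1, Acly, Acaca, Acacb, Fasn, Elovl6, Scd1, Fads1 and Acsl1). It also held the highest Adipoq, the adipocyte hormone adiponectin, at 283 TPM, and the highest sum of 8 adipocyte markers at 4750 TPM, beside 2211 TPM of 4 skeletal muscle markers. The median adipocyte sum was 228 TPM in the 79 libraries and 14.4 TPM in the 36. W1790 held the maximum of 6 genes of the sterol arm (Hmgcs1, Idi1, Fdps, Fdft1, Msmo1 and Dhcr7) and W1050 of 4 (Mvk, Cyp51, Scap and Npc1).

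**Figure D1:**
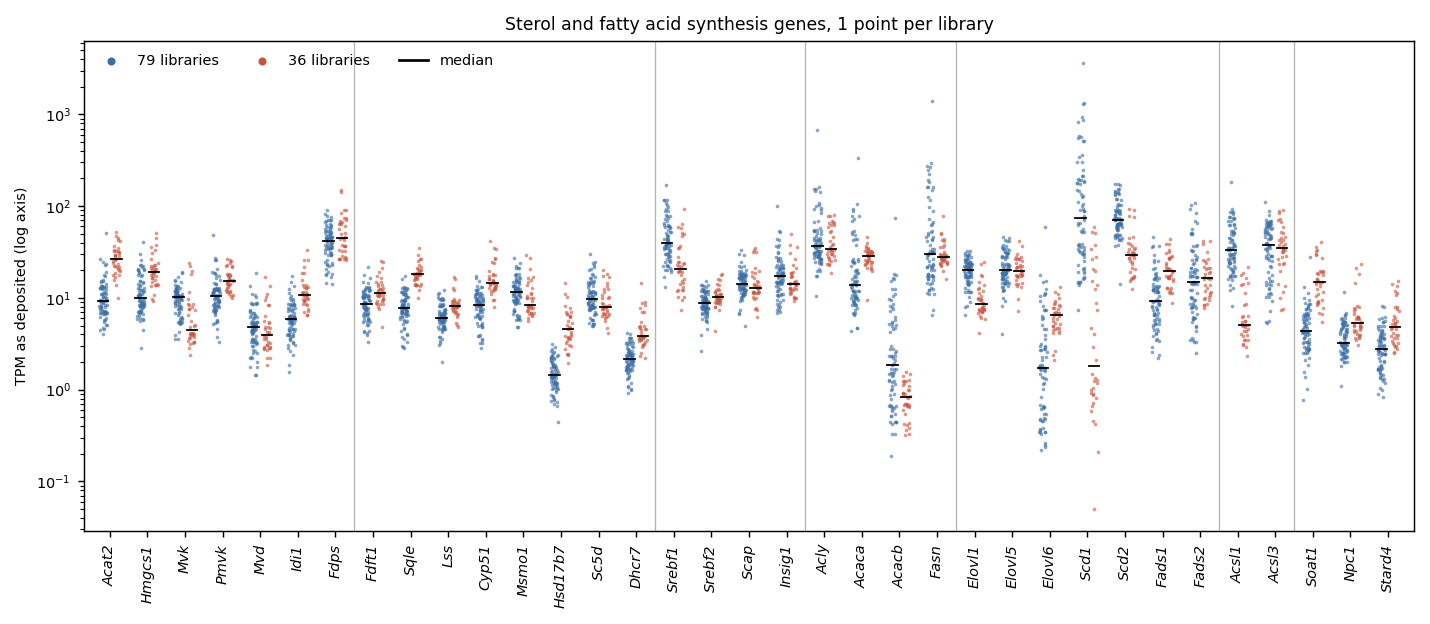
TPM as deposited (log axis) of the 35 genes, 1 point per library, with the 79 libraries in blue, the 36 in red and the median of each as a black line; grey lines part the roles in the order of the text. Scd1 runs from 0.05 to 3619 TPM and Fasn, Acly and Acaca each have a single highest point, W4078.

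A few very abundant genes set the TPM scale of each library, since the 20 genes with the largest share took between 48.9% and 81.8% of the total (median 66.3%). For relations between genes, each library was therefore divided by a median-of-ratios size factor (0.407 to 1.65, called scaled TPM here), and levels are log2(scaled TPM + 1). A slope is the change in a gene's log2 level per unit of the reference's log2 level. It was tested with limma over every gene that averaged 1 TPM or more, 14621 in the 79 libraries and 14611 in the 36, and the adjusted p is by Benjamini-Hochberg over all of them.

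The sterol enzymes moved together in both parts, and the 4 fatty acid synthesis genes did so in the 79 libraries. Over all pairs of the 15 sterol enzymes, Pearson's r had a median of 0.564 in the 79 libraries and of 0.522 in the 36, beside -0.002 and 0.020 over all pairs of genes tested. Pairs are not independent, since they share libraries, so these are descriptions without a test. The highest sterol pairs in the 79 were Fdps with Msmo1 (0.926), Mvk with Fdps (0.917) and Sqle with Msmo1 (0.916). In the 36 they were Cyp51 with Msmo1 (0.865) and Idi1 with Msmo1 (0.855).

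Acly, Acaca, Acacb and Fasn gave a median r of 0.883 over their 6 pairs in the 79 libraries, with Acaca and Fasn at 0.963. Without W4078 these were 0.856 and 0.954. Over all 55 pairs of the 11 fatty acid enzymes, elongases and desaturases included, the median was 0.395 and the range -0.407 to 0.963, so the wider group was uneven. In the 36 the same 6 pairs had a median of 0.038 and a range from -0.095 to 0.526 (a median of 0.151 without the 4 libraries lowest in Chga, described below). Sterol enzymes against the 11 fatty acid enzymes gave a median of 0.089 over 165 pairs in the 79 and of 0.284 in the 36. Fads1 and Fads2, neighbours on chromosome 19 that act in sequence on polyunsaturated fatty acids, had r = 0.963 in the 79 and 0.865 in the 36.

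The lowest pairs crossed roles. In the 79 libraries Acsl3 had r = -0.658 with Npc1, -0.577 with Soat1 and -0.528 with Stard4, and Srebf2 had -0.619 with Npc1. In the 36 the lowest was Srebf1 with Acaca at -0.780. With TPM as deposited, all pairs of genes in the 79 had a median r of 0.424, so the pairs are read on the scaled values.

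**Figure D2:**
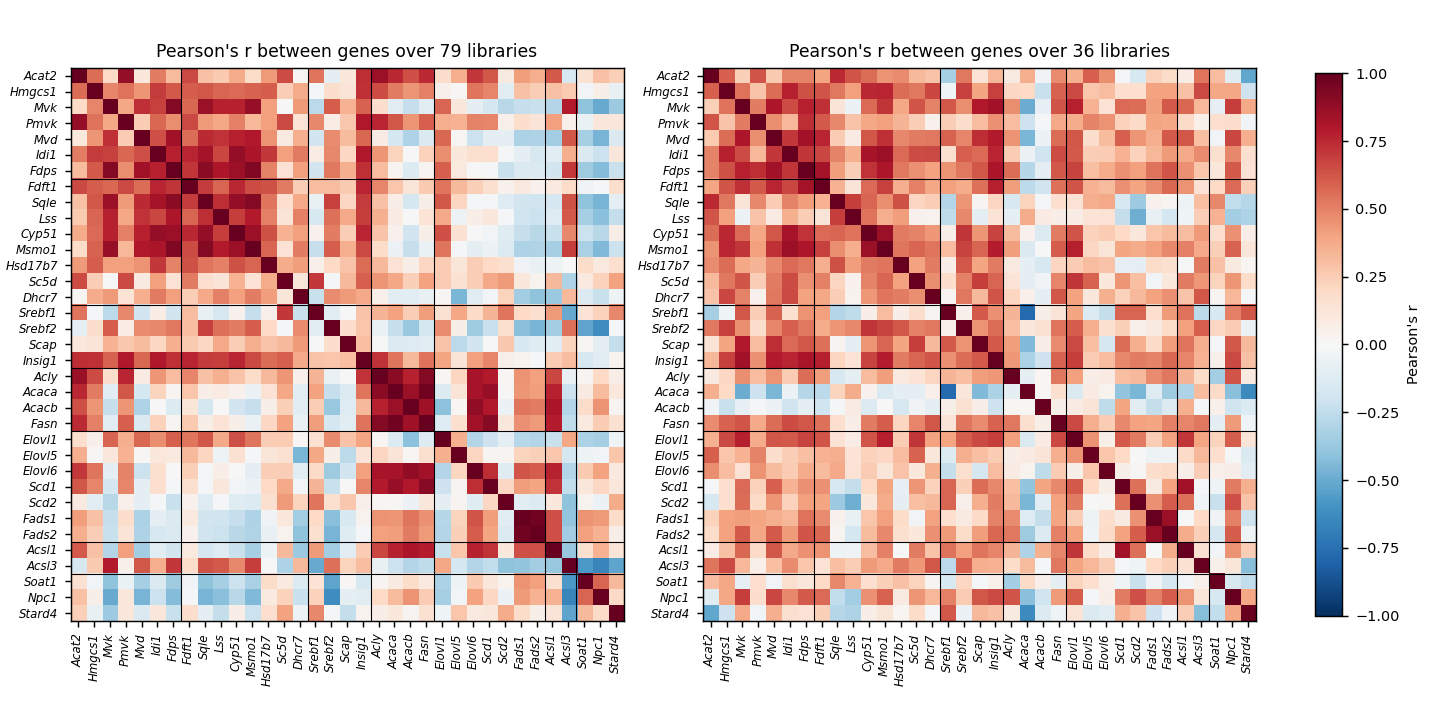
Pearson's r between every pair of the 35 genes on log2(scaled TPM + 1), over the 79 libraries (left) and the 36 (right), with black lines between roles and colour from -1 (blue) to 1 (red). The block of sterol enzymes is mostly red in both panels, and the block of Acly, Acaca, Acacb and Fasn with Elovl6 and Scd1 is red in the left panel, where its median r among the 4 synthesis genes was 0.883, against 0.038 on the right.

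Because these genes moved together, the start regions of 4 of them are shown as reference sequence, 250 bases before to 50 after the start in RefSeq on GRCm38.p6, with Hmgcs1, Mvk and Insig1 for the sterol block and Fasn for the fatty acid block. Capitals mark the core of a sterol response element, searched as TCACNCCAC, and the CCAAT box, each on both strands. The windows are chr13:119690101-119690400 (plus strand) for Hmgcs1, chr5:114444019-114444318 (plus) for Mvk, chr5:28071162-28071461 (plus) for Insig1 and chr11:120824498-120824797 (minus) for Fasn.
Hmgcs1: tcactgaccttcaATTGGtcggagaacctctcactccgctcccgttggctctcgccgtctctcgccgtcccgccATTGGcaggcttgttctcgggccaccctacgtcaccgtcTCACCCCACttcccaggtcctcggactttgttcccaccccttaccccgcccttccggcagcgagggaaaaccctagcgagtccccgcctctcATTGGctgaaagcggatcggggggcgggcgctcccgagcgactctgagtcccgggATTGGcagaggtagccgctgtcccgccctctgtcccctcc
Mvk: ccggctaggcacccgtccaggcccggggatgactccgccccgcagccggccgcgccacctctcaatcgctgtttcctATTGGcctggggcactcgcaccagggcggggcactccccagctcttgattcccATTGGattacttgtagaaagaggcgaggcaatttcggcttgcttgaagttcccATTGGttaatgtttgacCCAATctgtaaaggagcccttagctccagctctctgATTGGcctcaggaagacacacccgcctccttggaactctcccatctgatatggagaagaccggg
Insig1: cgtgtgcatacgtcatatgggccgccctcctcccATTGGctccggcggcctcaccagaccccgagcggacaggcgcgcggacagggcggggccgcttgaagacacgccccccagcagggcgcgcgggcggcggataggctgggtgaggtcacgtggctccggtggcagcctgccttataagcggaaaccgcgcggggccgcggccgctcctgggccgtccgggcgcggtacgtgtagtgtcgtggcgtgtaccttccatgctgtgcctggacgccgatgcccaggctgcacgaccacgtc
Fasn: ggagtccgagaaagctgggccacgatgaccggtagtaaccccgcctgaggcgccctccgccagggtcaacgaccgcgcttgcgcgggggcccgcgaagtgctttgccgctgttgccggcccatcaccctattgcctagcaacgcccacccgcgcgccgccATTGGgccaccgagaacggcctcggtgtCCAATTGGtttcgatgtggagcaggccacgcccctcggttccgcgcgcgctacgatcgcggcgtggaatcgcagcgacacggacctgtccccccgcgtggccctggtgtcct

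RefSeq promoters matched 27 of the 35 genes by symbol and gave 35 windows. TCACNCCAC was in 2 of the 35 windows (5.71%), beside 408 of 32851 windows of all genes (1.24%). The 2 were Hmgcs1, with TCACCCCAC at -137 from the start, and 1 of the windows of Acsl1, with GTGGGGTGA, the same core on the other strand, at -76. CCAAT was in 23 of the 35 windows (65.7%) and in 37.4% of all windows, and the window of Mvk held 5 copies, that of Hmgcs1 4, Fasn 3 and Insig1 1. A CCAAT box can overlap its own other strand, as CCAATTGG in the window of Fasn does, where it counts as 2 of the 3 copies. The other windows merely lack these letters in these 300 bases.

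Within the 79 libraries, 22 of the 34 other genes rose with Hmgcs1 and 0 fell, beside 11.1% rising and 6.7% falling over all genes. At an unadjusted p under 0.05 in limma 0 of the 34 fell as well. The 22 held 13 of the 14 other sterol enzymes, all 4 fatty acid synthesis genes, Insig1, Elovl6, Scd1, Fads1 and Acsl1. The slopes were largest for Scd1 (1.62, SE 0.32, adjusted p = 0.0001714), Fasn (1.21, SE 0.23), Elovl6 (1.17, SE 0.21), Acacb (0.99, SE 0.23), Acaca (0.95, SE 0.18) and Acly (0.91, SE 0.12). Of all genes, the 5 with the highest r with Hmgcs1 were Insig1 (0.728), Pank3 (0.725), Aacs (0.715), Gnai1 (0.701) and Idi1 (0.697), and 9 of the 34 members were among the first 100 of 14621.

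Insig1, an SREBP target that feeds back on SCAP, had 8.48, 10.9 and 7.12 scaled TPM in the 3 libraries lowest in Hmgcs1 and 35.2, 34.8 and 78.1 in the 3 highest. Its slope was 0.86 (SE 0.09, adjusted p = 2.198e-10), with rho = 0.701. Leaving out the 2 most extreme libraries in Hmgcs1 gave r = 0.677. Idi1 had 3.01, 5.44 and 1.58 scaled TPM in the same 3 lowest libraries and 8.49, 14.5 and 11.5 in the 3 highest. For both genes all 3 highest libraries lay above all 3 lowest.

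Without W4078, 21 of the 34 rose, beside 10.3% rising and 7.52% falling over all genes. Fads1 and Acsl1 (0.21, adjusted p = 0.2043 in limma) did not pass. Fat moved with Hmgcs1 in the 79 libraries, as all 8 adipocyte markers rose (median slope 1.83). With the adipocyte index as a covariate, 20 of the 34 genes still rose, when 19.5% of all genes rose and 11.1% fell. Acsl1 then turned to a slope of -0.02 (adjusted p = 0.8731 in limma). On TPM as deposited 33 of the 34 rose, but so did 11853 of the 14621 genes (14 fell), and the median slope of all genes moved from 0.01 to 0.29. Without the 20 most abundant genes 22 of the 34 rose, among 12.3% of all genes rising and 0.239% falling.

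Within the 36 libraries, 17 of the 34 genes rose with Hmgcs1 and 0 fell, beside 14.4% rising and 8.26% falling over all genes. These were 12 of the 14 other sterol enzymes with Srebf2, Insig1, Fasn, Elovl1 and Acsl3. The largest slopes were those of Acsl3 (1.21, SE 0.23, adjusted p = 0.000686), Fdps (0.84, SE 0.17), Mvk (0.81, SE 0.21), Idi1 (0.77, SE 0.11), Msmo1 (0.77, SE 0.11) and Cyp51 (0.70, SE 0.10). Idi1 had 4.96, 5.35 and 5.76 scaled TPM in the 3 libraries lowest in Hmgcs1 and 18.6, 16.4 and 21.3 in the 3 highest. Here 0 of the 8 adipocyte markers passed the threshold (median slope 0.142), 4 of 6 neuroendocrine markers fell and 3 of 5 proliferation markers rose, whose part was not tested, and 3 of the 34 members were among the first 100 genes by r. Deposited TPM gave 29 of the 34 rising, among 5538 genes rising and 829 falling.

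Fasn was itself uneven in the 79 libraries, with 54 lower and 25 higher libraries by the mixture rule, so its relations were fitted with that split as a factor. Then 9 of the 34 genes rose with Fasn and 0 fell, where 2.12% of all genes rose and 0.0274% fell. They were Scd1 (slope 1.21, SE 0.12), Elovl6 (0.78, SE 0.10), Acaca (0.74, SE 0.04, adjusted p = 6.979e-24), Acacb (0.69, SE 0.10), Acly (0.62, SE 0.05), Insig1, Acsl1, Acat2 and Pmvk. The 2 sterol-arm enzymes among them, Acat2 and Pmvk, stand against 13 that did not pass the threshold.

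Acaca followed Fasn most closely. It had 14.1, 23.2 and 18.9 scaled TPM in the 3 lowest of the 25 libraries and 64.3, 75.3 and 258 in the 3 highest. In the 25 libraries r was 0.975 (rho = 0.965, and 0.962 without the 2 farthest libraries), and in the 54 it was 0.605 (rho = 0.637). Acly had r = 0.954 in the 25 and 0.364 in the 54, and Insig1 0.706 and 0.094. The 5 genes most alike, after centring on the split, were Acaca (0.890), Agpat2 (0.855), Acly (0.830), Gpd1 (0.767) and Hadhb (0.760), of which Agpat2 and Gpd1 act in glycerolipid synthesis and Hadhb in fatty acid oxidation.

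Adipocyte markers again moved with Fasn, 5 of the 8 rising in the 79 libraries, and all 9 genes still rose with the adipocyte index as a covariate. Without W4078, 7 of the 34 rose (Insig1 and Pmvk did not), and the share of all genes that rose went from 2.12% to 0.766%. Fitted in the 25 libraries alone, 9 of the 34 rose and 0 fell, beside 2.57% and 0.0205% of all genes. With the adipocyte index there 6 rose, beside 0.794% of all genes. Deposited TPM had 32 of the 34 rising in the 79 (12341 of all genes rose and 23 fell, with a median slope of 0.23), and without the 20 most abundant genes 19 of the 34 rose (4353 and 37). The median slope of all genes was then 0.11. On ranks 3 of the 34 rose, beside 0.226% of all genes.

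In the 36 libraries Fasn spanned 15.96 to 77.98 TPM. There 23 of the 34 genes rose with it and 0 fell, beside 24.6% rising and 13% falling over all genes, and 11 of the 15 sterol enzymes were among the 23. The largest slopes were Scd1 (2.53, SE 0.76, adjusted p = 0.01065), Acsl3 (1.32, SE 0.35), Mvk (1.26, SE 0.26), Fdps (1.10, SE 0.23), Acsl1 (0.99, SE 0.30) and Mvd (0.91, SE 0.23). Stroma (4 of 6), leukocyte (3 of 3) and adipocyte markers (6 of 8) rose with Fasn in these libraries too, and 4 of 6 neuroendocrine markers fell. The part of stroma and leukocytes was not tested. With the adipocyte index as a covariate 16 of the 34 rose, beside 9.78% rising and 5.76% falling over all genes. Without the 4 libraries lowest in Chga, 6 of the 34 rose (Acat2, Mvk, Idi1, Fdps, Elovl1 and Elovl5), beside 7.17% rising and 4.2% falling. Without the 20 most abundant genes 9 rose, among 1051 genes rising and 176 falling.

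**Figure D3:**
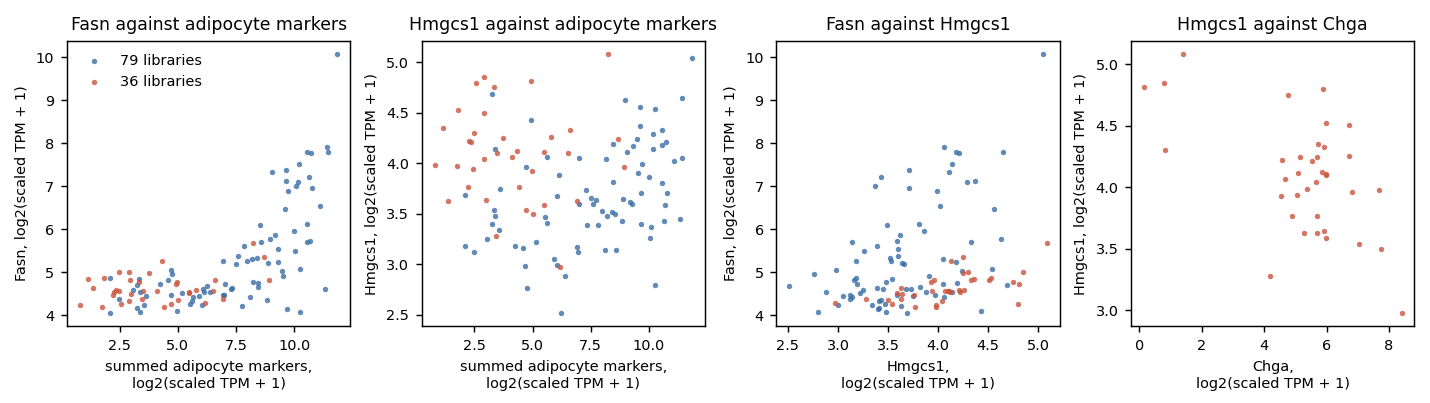
Fasn and Hmgcs1 against the sum of 8 adipocyte markers, Fasn against Hmgcs1, and Hmgcs1 against Chga (36 libraries only), all as log2(scaled TPM + 1) with 1 point per library. Fasn is flat until the adipocyte sum is high and then climbs, with W4078 at the top right, and in the last panel the 4 libraries at the left, with 0.15 to 2.55 TPM of Chga, stand apart.

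Against proliferation, most of these genes did not move in the 79 libraries. With Mki67 (0.39 to 25.7 TPM there), 7 of the 35 genes rose and 1 fell, while 22% of all genes rose and 20% fell, so the share of members called was below the background. Srebf1 rose with a slope of 0.25 (SE 0.05, adjusted p = 3.375e-05) and Stard4, the cytosolic sterol carrier, with 0.24 (SE 0.04, adjusted p = 7.85e-07). Elovl5 (0.14, SE 0.04), Sc5d (0.14, SE 0.04), Acat2 (0.13, SE 0.05), Pmvk (0.12, SE 0.05) and Elovl1 (0.12, SE 0.03) rose less, and Scap fell (-0.09, SE 0.04, adjusted p = 0.03894).

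Stard4 had 2.48, 4.89 and 1.52 scaled TPM in the 3 libraries lowest in Mki67 and 3.76, 4.81 and 5.93 in the 3 highest, so the ends overlapped. Over the 79 libraries its r was 0.561 and its rho 0.564, each with a permutation p = 1e-05, the smallest that 100000 permutations can give. Leukocyte markers (3 of 3) rose with Mki67 here as well, and their part was not tested, whereas 0 of the 8 adipocyte markers passed the threshold. On TPM as deposited, 27 of the 35 genes rose and Scap turned to 0.14 (adjusted p = 0.004142), but 10660 of all genes rose and 210 fell, with a median slope of 0.18. Without the 20 most abundant genes 10 rose and 1 fell, among 4890 rising and 1199 falling.

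In the 36 libraries, where Mki67 reached 144 TPM, 17 of the 35 genes fell with it and 2 rose, beside 38.2% falling and 23.6% rising over all genes, whose median slope was -0.09. On TPM as deposited 6 of the 35 fell and 2 rose, when 21.6% of all genes fell and 23.3% rose, so the count of falling members depends on the scale. The 17 took in 6 of the 15 sterol enzymes (Mvk, Pmvk, Mvd, Fdps, Fdft1 and Msmo1), the regulators Srebf1, Scap and Insig1, Acly, 4 elongation and desaturation genes (Elovl1, Scd1, Scd2 and Fads2), Acsl1, Npc1 and Stard4. The largest falls were Scd1 (-2.06, SE 0.35, adjusted p = 6.565e-06), Srebf1 (-1.11, SE 0.11, adjusted p = 4.071e-10), Mvk (-0.71, SE 0.15), Acsl1 (-0.70, SE 0.15), Scd2 (-0.57, SE 0.13) and Fdps (-0.57, SE 0.14). The 2 genes that rose were Acaca (0.40, SE 0.06, adjusted p = 1.014e-06) and Acsl3 (0.49, SE 0.21, adjusted p = 0.04566).

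Srebf1 had 56.2, 48.7 and 69.6 scaled TPM in the 3 libraries lowest in Mki67 and 13.8, 9.94 and 15.8 in the 3 highest. These ends did not overlap, and over the 36 libraries r was -0.867 and rho -0.839 (permutation p = 1e-05 each, of 380 relations computed). Scd1, a known target of SREBP-1, had 4.68, 28.1 and 6.60 scaled TPM at the low end and 0.81, 0.58 and 0.17 at the high end, with r = -0.701. Acaca went the other way, from 10.8, 17.3 and 14.7 to 21.4, 27.5 and 21 scaled TPM, with r = 0.762 and rho = 0.687.

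Acsl3 had r = 0.356 but rho = 0.145, and r = 0.112 without the 2 farthest libraries, so its rise rests on them. For Srebf1, Scd1 and Acaca the value without those 2 libraries was -0.826, -0.738 and 0.688. Over the 17 falling genes it ran from -0.826 for Srebf1 to -0.462 for Stard4, so each kept its direction.

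Markers of other cells moved with Mki67 in these libraries. All 6 stroma markers fell (median slope -1.89), as did 3 of 3 leukocyte and 6 of 8 adipocyte markers, and 3 neuroendocrine markers rose and 1 fell. The adipocyte sum went from 0.80 to 518 TPM and the stroma sum from 2.60 to 1820. With the adipocyte index as a covariate, 13 genes fell and 2 rose, beside 32.6% falling and 21.1% rising over all genes. Srebf1 then had a slope of -1.14 and Scd1 of -1.365. The part of stroma and leukocytes was not tested. Without the 20 most abundant genes 8 fell and 4 rose (3508 and 5282 over all genes), and under both other scales Srebf1 and Scd1 fell and Acaca rose.

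**Figure D4:**
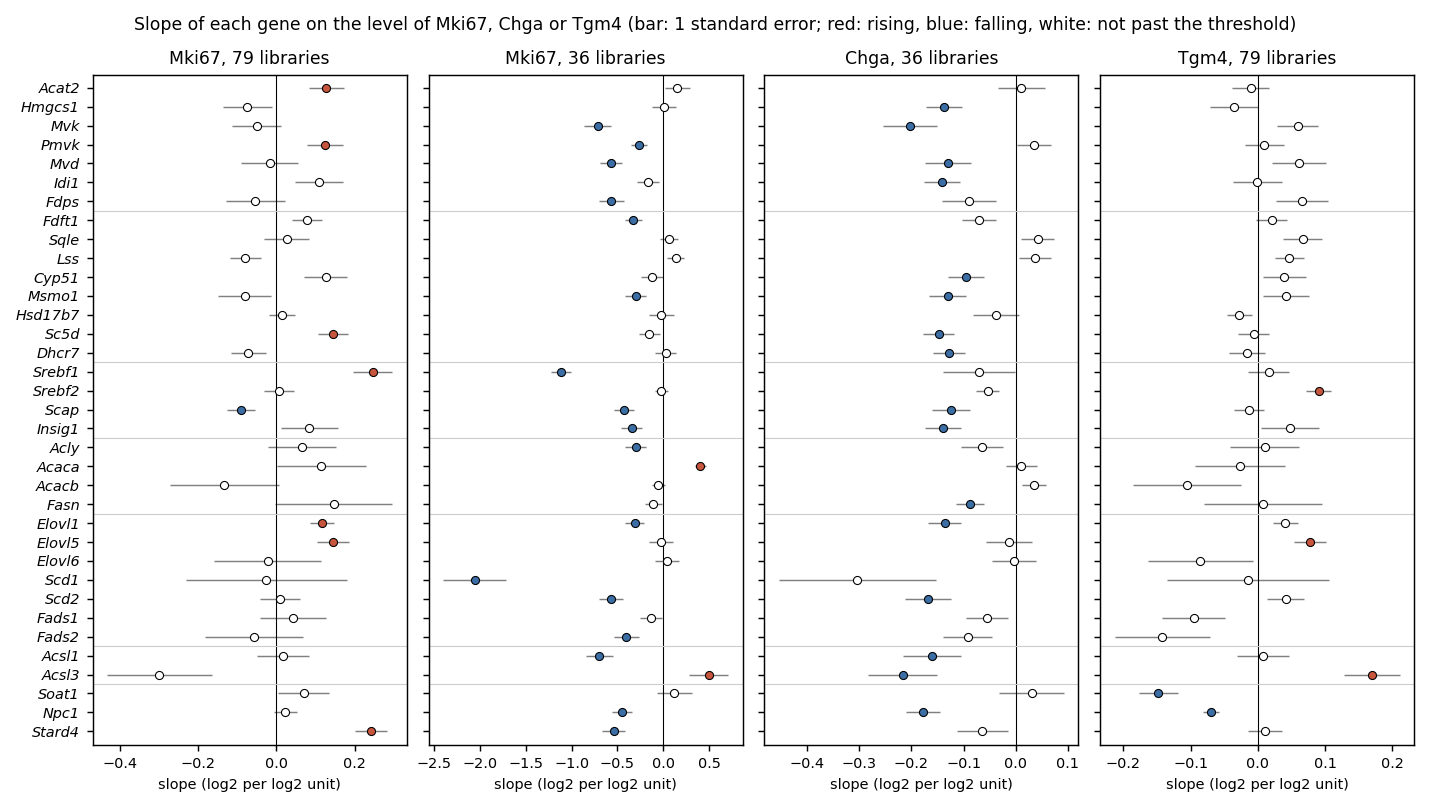
Slope of each of the 35 genes on Mki67, Chga or Tgm4, in log2 units of the gene per log2 unit of the reference, with bars of 1 standard error; red points rose, blue fell and white did not pass an adjusted p of 0.05. The panels have different horizontal scales. In the second, 17 genes fell and 2 rose, with Scd1 at -2.06 and Srebf1 at -1.11.

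Against Chga, only the 36 libraries could be fitted, since 7 of the 79 reached 1 TPM. In these, 16 of the 35 genes fell and 0 rose, beside 19.2% falling and 14.7% rising over all genes, and 8 of the 15 sterol enzymes were among the 16. The slopes were small, the largest being Acsl3 (-0.22, SE 0.07), Mvk (-0.20, SE 0.05), Npc1 (-0.18, SE 0.03, adjusted p = 6.588e-05), Scd2 (-0.17, SE 0.04), Acsl1 (-0.16, SE 0.06) and Sc5d (-0.15, SE 0.03). None of these calls passed without 4 libraries.

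Those 4 (W1118, W1050, W1915 and W1790) had 0.15, 1.15, 1.23 and 2.55 TPM of Chga, against at least 21.2 TPM in the other 32. They had 37.8, 44.4, 30.9 and 50.8 TPM of Hmgcs1, and the 2 next in Chga had 10.7 and 18.6. Insig1 was at 35.5, 37.9, 31.1 and 49.5 TPM in the 4. Their summed neuroendocrine markers were 1.46, 3.60, 28.9 and 4.61 TPM, beside 191 and 90.8 in the next 2. Their stroma sums were 1802, 1034, 520 and 1820 TPM, against a median of 187 in the 36, and W1790 held 461.6 TPM of adipocyte markers. The part of these cells in the relations with Chga was not tested.

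W1118 also held 574 TPM of Alb, the liver gene for albumin, and 880 TPM over 3 hepatocyte markers, where the other 3 had at most 0.33. Without the 4 libraries, 0 of the 35 genes passed limma's adjusted threshold. Over all genes 1.65% then rose and 0.438% fell, down from 14.7% and 19.2%, so the loss was not particular to these genes. At an unadjusted p under 0.05 in limma, 3 of the 35 fell and 5 rose. No share of all genes was computed at that level, so these counts have no background. Of the 16 slopes 7 turned positive, among them Mvd (0.14), Npc1 (0.09) and Mvk (0.09). Acsl3 at -0.31 (SE 0.14) and Sc5d at -0.17 (SE 0.06) stayed as large with wider errors. The other slopes that stayed negative shrank, such as Idi1 from -0.14 to -0.05 and Scd2 from -0.17 to -0.06. On ranks 0 of the 35 passed as well, when 2.2% of all genes rose and 0.554% fell. At that unadjusted level 4 of the 35 fell and 1 rose, again without a share of all genes. Npc1 shows the dependence, with r = -0.682 but rho = -0.039. Deposited TPM gave 18 of the 35 falling and 0 rising (3533 and 1453 over all genes), and without the 20 most abundant genes 14 fell (2337 and 3065).

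The same 4 libraries bear less on the slopes of Srebf1, Scd1 and Acaca with Mki67, which were -1.06, -1.88 and 0.39 without them. Without them 12 of the 35 genes fell with Mki67 and 2 rose, beside 34.2% falling and 19.9% rising over all genes. The share of falling members was then close to that of all genes. For Hmgcs1, 15 of the 34 genes rose without them and 1, Stard4, fell, beside 11.1% rising and 4.13% falling over all genes.

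Against Tgm4, the prostate secretory gene, 20 of the 79 libraries were lower (median 270 TPM) and 59 higher (median 8814 TPM), and the split was a factor in the fit. Then 3 of the 35 genes rose and 2 fell, beside 13.2% rising and 10.6% falling over all genes. On ranks 13 rose and 9 fell, when 34.7% of all genes rose and 24.5% fell. Acsl3 rose (0.17, SE 0.04, adjusted p = 0.001394), as did Srebf2 (0.09, SE 0.02, adjusted p = 0.0001299) and Elovl5 (0.08, SE 0.02). Soat1 (-0.15, SE 0.03) and Npc1 (-0.07, SE 0.01, adjusted p = 3.704e-06) fell. Leukocyte (3 of 3) and stroma markers (4 of 6, with 1 rising) fell as well, and their part was not tested. On TPM as deposited 4 rose and 0 fell (2013 and 314 over all genes), and without the 20 most abundant genes 5 rose and 2 fell (2519 and 791).

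A single slope shared by the 20 and the 59 libraries described Acsl3 poorly. Acsl3 (chromosome 1, 78657825 to 78707743, plus strand) activates long-chain fatty acids at the endoplasmic reticulum and lipid droplets and is known as an androgen-responsive gene. It had 22.7, 24.7 and 31.4 scaled TPM in the 3 lowest of the 59 libraries, where Tgm4 was at 3008, 3183 and 3252, and 93.4, 98.5 and 92.5 in the 3 highest, where Tgm4 was at 18493, 19249 and 20157. Over the 59, r was 0.954 and rho 0.969 (permutation p = 1e-05 each), and r was 0.950 without the 2 farthest libraries. Over the 20, r was 0.144 and rho 0.465, and r was 0.705 without the 2 farthest, of which W1154 had 1.57 scaled TPM of Tgm4 and 34.03 of Acsl3.

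The 59 libraries were then fitted alone, a choice made after these values were seen. In them 14 of the 35 genes rose and 10 fell with Tgm4, close to the 35.7% rising and 27.5% falling of all genes. Of the 15 sterol enzymes 9 rose and 0 fell, while of Acly, Acaca, Acacb and Fasn 0 rose and 2 fell, of the 7 elongation and desaturation genes 1 rose and 3 fell, and all 3 sterol handling genes fell. No difference between these groups was tested.

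The largest rises were Acsl3 (0.81, SE 0.03, adjusted p = 1.536e-28), Mvd (0.44, SE 0.08), Fdps (0.44, SE 0.07), Mvk (0.38, SE 0.05, adjusted p = 3.607e-09), Msmo1 (0.37, SE 0.07) and Sqle (0.29, SE 0.06). Among the regulators Srebf2 (0.22, SE 0.04), Insig1 (0.23, SE 0.08) and Scap (0.11, SE 0.04) rose and Srebf1 fell (-0.18, SE 0.06). The largest falls were Acacb (-0.66, SE 0.16), Fads2 (-0.61, SE 0.15), Elovl6 (-0.50, SE 0.15), Fads1 (-0.41, SE 0.10), Acaca (-0.34, SE 0.12) and Soat1 (-0.27, SE 0.06).

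Other markers moved with Tgm4 in the 59 as well. Of these, 5 of 8 adipocyte, 3 of 3 leukocyte, 3 of 6 stroma, 3 of 4 skeletal muscle and 3 of 6 neuroendocrine markers fell. So did 2 of 4 seminal vesicle, 2 of 3 hepatocyte and 2 of 3 other prostate secretory markers, while the remaining prostate secretory marker rose. Beyond the adipocyte index, the part of these cells was not tested. With the adipocyte index as a covariate, 8 of the 15 sterol enzymes rose and 0 fell. Of the 35 genes 13 then rose and 7 fell, beside 33.6% rising and 26.2% falling over all genes. As deposited, 7 of the 15 rose and 0 fell (10 and 1 of the 35, with 2854 and 2381 of all genes). Without the 20 most abundant genes 5 of the 15 rose and 2 fell (7 and 14 of the 35, with 2478 and 5600 of all genes), and Acsl3 kept a slope of 0.79.

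In the 36 libraries Acsl1, a long-chain acyl-CoA synthetase, was the only one of the 35 genes that passed with Tgm4 (0.20, SE 0.05, adjusted p = 0.00703), beside 3.73% of all genes rising and 0.308% falling. Without the 3 libraries with over 8 TPM of Tgm4 (18.7, 195 and 2469), 0 of the 35 genes passed in limma. Over all genes 0.0274% then rose and 0.0% fell. At an unadjusted p under 0.05 in limma, 5 of the 35 rose and 1 fell. No share of all genes was computed at that level, so these counts have no background.

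**Figure D5:**
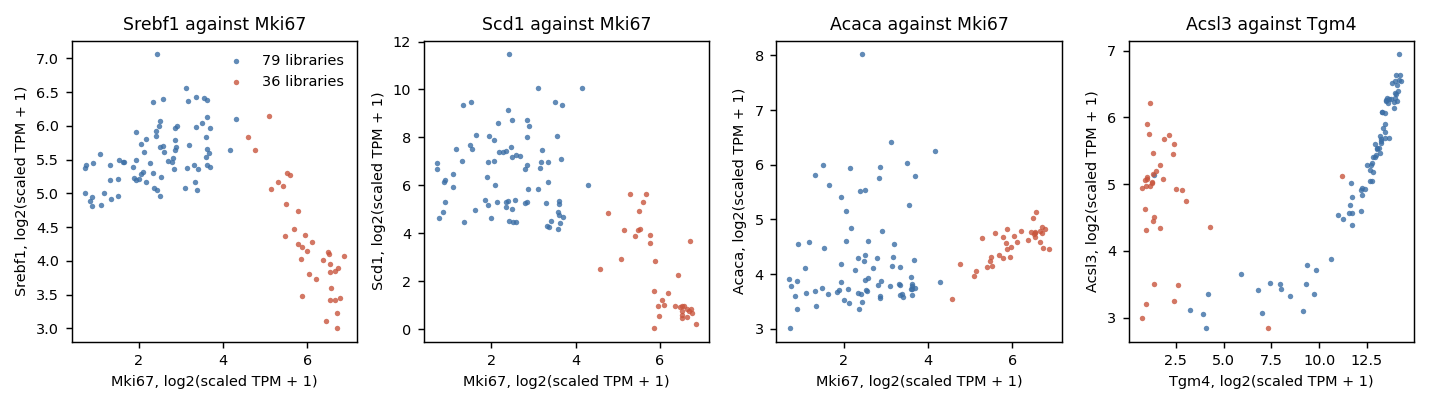
Levels as log2(scaled TPM + 1) of Srebf1, Scd1 and Acaca against Mki67 and of Acsl3 against Tgm4, 1 point per library, with the 79 libraries in blue and the 36 in red. In the red points Srebf1 and Scd1 go down and Acaca goes up with Mki67, and the blue points of Acsl3 climb steeply at high Tgm4, where r over 59 libraries was 0.954.

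Of 36 other genes of these pathways, 35 entered the tests. In the 36 libraries 19 of the 35 fell with Mki67 and 5 rose, beside 38.2% falling and 23.6% rising over all genes. Genes are named here by adjusted p, not by slope, and the falling ones with the smallest were Stard3 (-0.83), a late endosomal sterol transporter, Mlycd (-0.51), the malonyl-CoA decarboxylase, Slc25a1 (-0.71), the citrate carrier, and Mylip (-1.17), a ligase for lipoprotein receptors. With Mki67 in the 79, 6 rose, led by Lbr (0.46, SE 0.03), a sterol reductase of the nuclear envelope, and 4 fell. Over all genes 22% rose and 20% fell, so these counts were below the background. With Hmgcs1 in the 79, 16 rose and 3 fell, beside 11.1% rising and 6.7% falling over all genes. The risers were led by Slc25a1 (0.80), Acss2 (0.92), Me1 (0.88) and Fads3 (0.67). With Fasn there, 12 rose and 0 fell, beside 2.12% rising and 0.0274% falling over all genes. The 12 were led by Agpat2 (0.82), Me1 (0.63), Thrsp (1.49), a lipogenic protein, and Mlxipl (0.59), which encodes ChREBP.

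With Chga in the 36, 6 of these 35 rose and 8 fell, beside 14.7% rising and 19.2% falling over all genes. The risers were led by Elovl4 (0.39, SE 0.05), an elongase of very long chains, Lpin1 (0.20), Acsl6 (0.24), an acyl-CoA synthetase of neural tissue, and Elovl2 (0.24). None of these 4 passed without the 4 libraries lowest in Chga, when 1.65% of all genes rose. In that limma fit Elovl7 (0.48, SE 0.12, adjusted p = 0.03433) and Slc25a1 (0.28, SE 0.08, adjusted p = 0.04499) did pass and rose. With Tgm4 in the 79, 3 rose (Tmem97, Mbtps1 and Npc2) and 3 fell (Insig2, Abcg1 and Mylip), and in the 59 alone 9 rose and 11 fell. Over all genes 13.2% rose and 10.6% fell in the 79, and 35.7% and 27.5% in the 59. Tmem97, a sterol-regulated membrane protein, had the steepest rise of these in the 59 (0.84).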

How the data were processed

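Total RNA from prostate tissue of (TRAMP x WSB/EiJ) F2 mice was depleted of ribosomal RNA and sequenced in read pairs. The authors trimmed the reads with Trimmomatic, mapped them with Bowtie2 (2.2.5) to transcripts built by Seqnature for both parental strains on GRCm38, and quantified genes with RSEM (1.2.20, versions per the submitters' processing notes). The values the authors deposited are TPM, 1 table of 45699 genes by 79 and 36 libraries, as separated here. TPM keeps no read depth, so the counting precision of a value is unknown and no count model was used. The paper's text gives fewer RNA samples than the table holds and does not name them, so all libraries were kept. Nothing in the labels says whether any library is a technical repeat.

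Members were matched by symbol to Ensembl identifiers with GENCODE M21 on GRCm38. TPM was divided by a median-of-ratios size factor over the 15748 genes above 0 in every library, and log2 was taken after adding 1. Libraries were separated by a mixture of 2 normal distributions on principal component 1 (fall in BIC of 196, Ashman D of 6.10). Slopes on each reference gene were fitted with limma 3.58.1 (R 4.3.3, moderated with a trend) inside each part where the reference reached 1 TPM in at least 50% of libraries, with genes of mean TPM under 1 left out. The rank alternative was fitted without moderation. Pearson's r and Spearman's rho of the 34 or 35 members with a reference were tested two-sided with 100000 permutations. P-values measure the spread between these libraries. The fitting step was tested on simulated data first. Copies and shared exons were found with BLAST+ 2.17.0 and the annotation.

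The named genes are the members with the 6 largest slopes in each direction past an adjusted p of 0.05, the 5 genes most like Hmgcs1 and Fasn, up to 4 other pathway genes per direction, and members shown to describe a role. Members, gene lists, marker lists and references were chosen with earlier results of these data known. The fits without W4078, without the 4 libraries lowest in Chga, without the 3 highest in Tgm4 and in the libraries of higher Tgm4 or Fasn alone were added after seeing the data, as were the gene pairs without W4078 or those 4 libraries. Some genes of these pathways are not reported here.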

Additional observations from a re-analysis of the deposited data

How the results depend on the processing

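No paired analysis was possible because the labels give 1 group. The causes of the changes below were not tested. With TPM as deposited, the number of the genes past the threshold went from 8 to 27 for Mki67 in the 79 libraries, from 19 to 8 for Mki67 in the 36, from 17 to 29 for Hmgcs1 in the 36, from 22 to 33 for Hmgcs1 in the 79, and from 9 to 32 for Fasn in the 79, and Scap turned to 0.14 with Mki67. The median r of sterol with fatty acid enzymes in the 79 went from 0.089 to 0.488. Without the 20 most abundant genes the counts were 12 for Mki67 in the 36, 19 for Fasn in the 79 and 9 for Fasn in the 36. Without them the median of the member medians went from 11.9 to 33.01 TPM.

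On ranks, 0 genes passed with Chga (Mvd at 0.0618 and Scap at 0.0404 changed sign), 22 with Tgm4 and 3 with Fasn in the 79, and the median rho among the 4 synthesis genes was 0.745. With both parts in 1 fit, 4 passed with Mki67, when 17.6% of all genes rose and 20.2% fell. With the adipocyte index, 0 passed with Tgm4 in the 36, when 1.43% of all genes rose and 0.0274% fell. At an unadjusted p under 0.05 in limma 2 rose, and no share of all genes was computed at that level. Acsl1 turned to -0.0238 with Hmgcs1 under the adipocyte index. In the libraries of higher reference level alone, 24 passed with Tgm4, 11 with TPM as deposited, 21 without the 20 most abundant genes (Elovl5 at -0.14) and 20 with the adipocyte index. With Fasn, 22 passed there on TPM as deposited, when 34.2% of all genes rose and 0.0411% fell. Without the 4 libraries lowest in Chga, 0 passed with Chga (1.65% of all genes rose and 0.438% fell) and 6 with Fasn (7.17% and 4.2%). The slopes on Chga then changed sign for Mvk (0.0856), Mvd (0.141), Cyp51 (0.00583), Msmo1 (0.0225), Scap (0.0862), Insig1 (0.0313) and Npc1 (0.0934). Without the 3 libraries highest in Tgm4, 0 passed with it, when 0.0274% of all genes rose and 0.0% fell.

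Of 120 called slopes, 2 lost the threshold with a pseudocount of 0.1, 7 without the filter on low values, 13 with TPM as deposited and 29 without the 20 most abundant genes. Of 44 called slopes in the 79 libraries, 4 lost it without W4078 and 0 without W7822 and W78022, whose titles are nearly alike. Chga could not be fitted over both parts. Read depth, which TPM does not keep, limits what can be said of low values such as Scd1 at 0.05 TPM.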
